A study of Mus musculus with 11 samples.

Results

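The metallothioneins Mt1 and Mt2 and 8 genes known to be induced by glucocorticoids (Tsc22d3, Fkbp5, Klf15, Cebpb, Cebpd, Ddit4, Sgk1 and Zbtb16) were followed in quadriceps, a large thigh muscle, of aged mice. These 10 genes were taken by symbol, each matched to a single Ensembl identifier among the 53465 genes of the count table, and all 10 were among the 14117 genes with enough reads to be tested. The study compared 5 libraries from mice given DMSO, the solvent, with 6 from mice given myriocin, a fungal inhibitor of serine palmitoyltransferase, the enzyme that starts sphingolipid synthesis. In every mouse of both groups the strain was C57L/6JRj as the labels spell it, treatment began at 18 months of age and it lasted 10 weeks. The labels name no glucocorticoid or metal treatment, and they leave out dose, sex, the hour of tissue collection and whether each library came from its own mouse. The p-values therefore measure the spread between these libraries, which may be technical. Libraries are called DMSO 1 to 5 and Myriocin 1 to 6.

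Glucocorticoids are adrenal steroid hormones that bind the glucocorticoid receptor, a transcription factor held in the cytoplasm by HSP90 chaperones until hormone arrives. The receptor then binds DNA at glucocorticoid response elements and switches on genes that, in skeletal muscle, restrain growth signalling, promote protein and amino acid breakdown and dampen inflammation. Metallothioneins are small cysteine-rich proteins that hold zinc and copper. Their genes are induced by metals through the factor MTF1, which binds metal response elements, and also by glucocorticoids, so they are often measured beside the hormone's direct targets.

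Start-site windows of the genes are shown because both kinds of element are short words that can be searched for. The RefSeq table of build GRCm38.p6 gave windows of 300 bases, 250 before to 50 after the start, for 8 of the 10 genes (15 windows). Searched on both strands, the core of the metal response element was taken as TGCACNC or TGCGCNC, which differ in a base and so never match the same stretch of a strand, and the glucocorticoid response element as GNACA and TGTNC with any 3 bases between them, a palindrome that matches both strands at once. Positions are counted from 1 at the RefSeq start site, with negative numbers before it. The windows of Mt1 and Mt2, with the most matches to the metal element, and the Sgk1 window with the glucocorticoid element are printed from 5′ to 3′ on the plus strand, with matches in capitals: Mt1 from position -124 to 30 (chr8:94178965-94179118), Mt2 from -250 to 30 (chr8:94172368-94172647) and the fifth Sgk1 start site from -218 to -146 (chr10:21993672-21993744).
Mt1: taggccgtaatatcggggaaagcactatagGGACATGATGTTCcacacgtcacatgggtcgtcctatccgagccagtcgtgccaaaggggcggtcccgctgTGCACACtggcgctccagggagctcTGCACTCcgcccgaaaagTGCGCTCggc
Mt2: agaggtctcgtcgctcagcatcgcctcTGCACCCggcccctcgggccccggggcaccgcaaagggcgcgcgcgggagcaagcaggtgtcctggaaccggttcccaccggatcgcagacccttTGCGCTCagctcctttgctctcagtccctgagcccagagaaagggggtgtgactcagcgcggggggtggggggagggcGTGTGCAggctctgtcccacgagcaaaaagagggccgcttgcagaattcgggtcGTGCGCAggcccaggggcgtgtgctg
Sgk1: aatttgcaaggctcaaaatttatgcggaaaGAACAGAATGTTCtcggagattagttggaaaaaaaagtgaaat
In Mt1 the first capitals, GGACATGATGTTC at -94 to -82, match the glucocorticoid element, and the next 3 match the metal element at -23 to -17, 3 to 9 and 21 to 27. In Mt2 all 4 capitals match the metal element, those at -50 to -44 and 5 to 11 on the reverse strand. In Sgk1 the capitals GAACAGAATGTTC, at -188 to -176, match the glucocorticoid element. Among 32851 windows of this length over all genes, 25.7% held a metal element of either form (12.6% the TGCACNC form and 15.4% the TGCGCNC form), 1.97% held at least 3, 0.517% held at least 4 and 0.475% held the glucocorticoid element. Klf15, Ddit4 and the sixth Sgk1 start each had 1 match to the metal element, and the windows of Tsc22d3, Fkbp5 and Cebpb had none of either kind. A match describes letters and not binding, and no match says only that these letters are not in this window. Where transcription began in these libraries was not tested, so a match after the RefSeq start need not lie in the transcript. Elements outside the windows were not searched for.

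Levels are given as CPM, a gene's counts per 1000000 gene reads of the library, and the totals of gene reads ran from 22241131 to 23163721. At this depth 3 reads, taken as the floor, are worth 0.130 to 0.135 CPM. Markers of skeletal muscle summed to at least 153672 CPM in every library. Markers of other cell types were detected too. Hepatocyte markers summed to 50.8 to 222 CPM with DMSO and 42.7 to 205 CPM with myriocin, and the source of these transcripts was not tested. Neutrophil markers summed to 3.28 to 921 CPM with DMSO, the top value in DMSO 2, and 3.73 to 131 CPM with myriocin. Adipocyte markers summed to 709 to 3158 CPM with DMSO, again highest in DMSO 2, and 808 to 1607 CPM with myriocin. No defining marker of these lists was at 0 in all libraries. In bulk tissue, fewer cells of a type and less RNA per cell cannot be told apart.

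**Figure D1:**
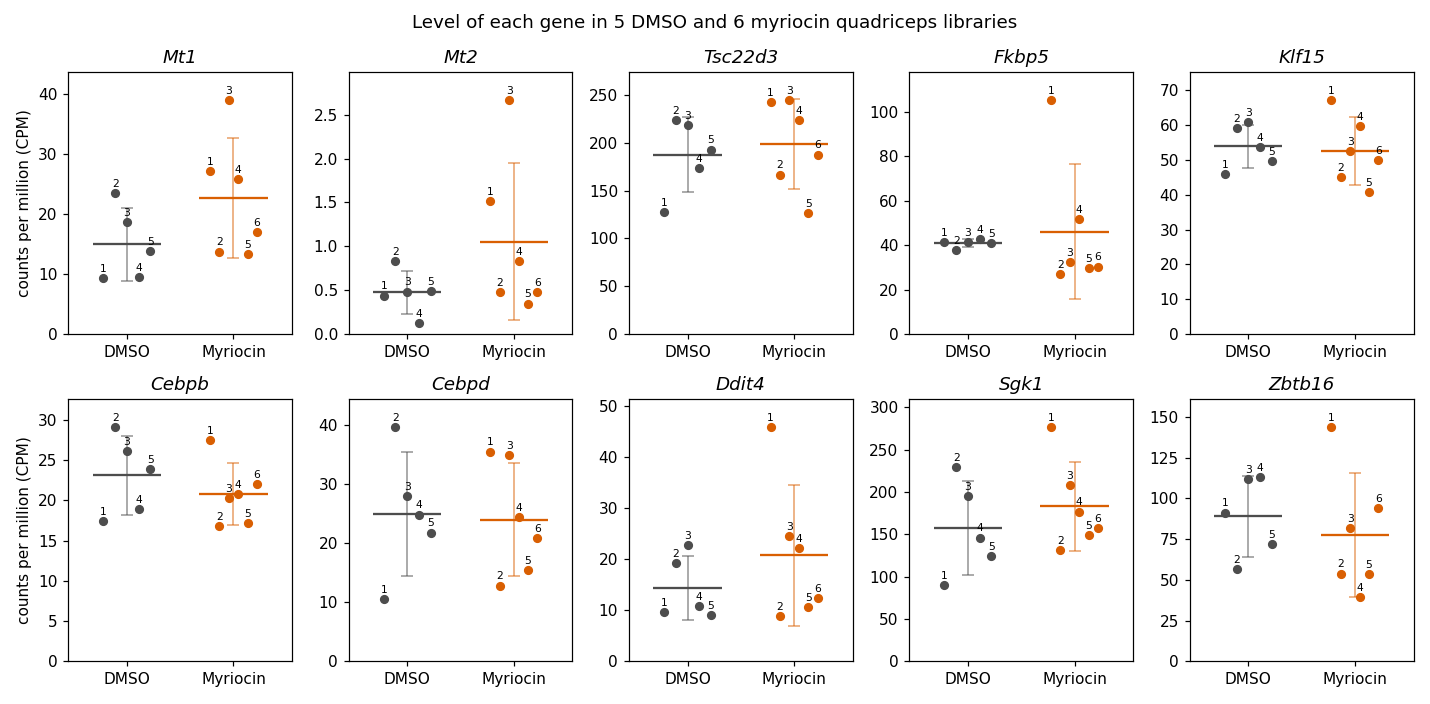
Level of each of the 10 genes in CPM (vertical axes, from 0) in the 5 DMSO and 6 myriocin libraries, with points numbered by library, horizontal lines for group means and bars for 1 SD. The groups overlap for all 10 genes, and Myriocin 1 is the highest point of Fkbp5, Klf15, Ddit4, Sgk1 and Zbtb16.

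The difference between the groups was estimated with edgeR's quasi-likelihood test, adjusted by Benjamini-Hochberg over all 14117 genes. None of the 10 genes passed an adjusted p of 0.05, and none passed 0.05 unadjusted. Over all tested genes, 0% passed the adjusted threshold and 4.68% (660 genes) had an unadjusted p below 0.05, 2.33% higher and 2.34% lower with myriocin. The members' adjusted p ran from 0.936 to 0.998, and the smallest of any gene was 0.513. The estimate was above 0 for 7 members and below 0 for 3, with a median log2 fold change (myriocin minus DMSO) of 0.17, beside -0.01 over all tested genes, of which 46.3% were above 0. That balance rested on Myriocin 1: without it 5 members were above 0 and 5 below, with a median of -0.01. Group means of log2(CPM + 1) also split 5 and 5. In all 10 members the groups overlapped, and 0.602% of all tested genes had groups that did not.

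Mt1 (ENSMUSG00000031765, chr8:94179082-94180327, plus strand of GRCm38) encodes the more abundant of the 2 metallothioneins in these libraries. With DMSO, Mt1 stood at 9.32, 23.4, 18.6, 9.57 and 13.8 CPM in libraries 1 to 5. With myriocin, Mt1 ran from 13.4 CPM in Myriocin 5 to 39.0 CPM in Myriocin 3, with a median of 21.4 CPM. Myriocin 1, 3 and 4 lay above every DMSO library, and the other 3 myriocin libraries lay inside the DMSO range. Mean Mt1 was 14.9 ± 6.07 CPM (SD, n = 5) in the DMSO group and 22.7 ± 9.95 CPM (SD, n = 6) in the myriocin group. The log2 fold change was 0.65, with a standard error (SE) of 0.34 and a 95% interval from -0.11 to 1.41 (unadjusted p = 0.0871, edgeR), so the difference was within what the spread between libraries allows. Without Myriocin 3 it was 0.43. An exact 2-sided permutation test of mean log2(CPM + 1) over all 462 assignments of libraries to groups, whose smallest possible p is 0.00216, gave p = 0.139.

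Mt2 (ENSMUSG00000031762, chr8:94172664-94173568, plus strand), the neighbouring metallothionein gene, was near the limit of this depth, with 199 reads in all 11 libraries. With DMSO it had 10, 19, 11, 3 and 11 reads, or 0.439, 0.828, 0.485, 0.130 and 0.495 CPM in libraries 1 to 5. With myriocin it ran from 8 reads (0.348 CPM) in Myriocin 5 to 61 reads (2.67 CPM) in Myriocin 3, with a median of 0.659 CPM. Myriocin 3 and Myriocin 1, the latter at 1.51 CPM, stood well above the rest, and DMSO 4 was at the floor of 3 reads. The log2 fold change was 1.18 (SE 0.57, 95% interval -0.06 to 2.42, unadjusted p = 0.0603, adjusted p = 0.936, edgeR), and it was 0.66 without Myriocin 3. The exact permutation test gave p = 0.197. Of its 588 exon bases 432 overlap the antisense gene Gm45774, which had 55 reads, and whether the counting used strand is not stated, so the level of Mt2 is uncertain. Mt1 exceeded Mt2 in all 11 libraries also per length, with means of 15.4 and 1.34 CPM per kilobase of exons. Both lengths are uncertain, so these means are rough. Only 156 exon bases of Mt2 lie outside the overlap, and the annotated exons of Mt1 cover its whole gene of 1246 bases.

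Tsc22d3 (ENSMUSG00000031431, chrX:140539528-140600659, minus strand) encodes GILZ, a leucine zipper protein that carries much of the hormone's anti-inflammatory action. Its DMSO libraries 1 to 5 held 128, 224, 219, 174 and 193 CPM. Its myriocin libraries ran from 126 CPM in Myriocin 5 to 245 CPM in Myriocin 3, with a median of 206 CPM. Low and high libraries occurred in both groups, DMSO 1 and Myriocin 5 being nearly equal. Tsc22d3 had a log2 fold change of 0.12 (SE 0.19, 95% interval -0.28 to 0.53).

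Fkbp5 (ENSMUSG00000024222, chr17:28399094-28517527, minus strand) encodes FKBP51, a co-chaperone of HSP90 that lowers the receptor's affinity for hormone and so closes a negative feedback loop. The DMSO libraries were close together at 41.4, 37.9, 41.5, 42.8 and 41.1 CPM. The myriocin libraries ran from 26.9 CPM in Myriocin 2 to 105 CPM in Myriocin 1, with a median of 31.5 CPM. Of the 6 myriocin libraries, 4 lay below every DMSO library and 2, Myriocin 1 and Myriocin 4, lay above every one. The SD was 1.80 CPM with DMSO (mean 40.9, n = 5) and 30.3 CPM with myriocin (mean 46.1, n = 6). This difference in spread was not tested. The log2 fold change was 0.21 (SE 0.36, 95% interval -0.60 to 1.02), and it was -0.22 without Myriocin 1.

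Klf15 (ENSMUSG00000030087, chr6:90462576-90475238, plus strand) encodes a zinc finger factor, a direct target of the receptor, that drives breakdown of branched-chain amino acids in muscle. It stood at 45.8, 59.2, 60.8, 53.6 and 49.8 CPM in DMSO 1 to 5. With myriocin it ran from 40.7 CPM in Myriocin 5 to 67.2 CPM in Myriocin 1, with a median of 51.2 CPM. The DMSO range lay inside the myriocin range, and the log2 fold change was 0.00 (SE 0.12, 95% interval -0.26 to 0.27), the narrowest interval of the 10 genes.

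Cebpb (ENSMUSG00000056501, chr2:167688915-167690418, plus strand) and Cebpd (ENSMUSG00000071637, chr16:15887286-15891031, plus strand) encode basic leucine zipper factors, C/EBP beta and C/EBP delta, that answer to both hormone and cytokines. Cebpb stood at 17.4, 29.1, 26.1, 19.0 and 23.9 CPM in DMSO 1 to 5. Its myriocin libraries ran from 16.8 CPM in Myriocin 2 to 27.5 CPM in Myriocin 1, with a median of 20.6 CPM. Myriocin 2 and Myriocin 5 lay just below the lowest DMSO library, and the log2 fold change was -0.11 (SE 0.15, 95% interval -0.43 to 0.20). Cebpd stood at 10.5, 39.6, 27.9, 24.8 and 21.8 CPM in DMSO 1 to 5. Its myriocin libraries ran from 12.8 CPM in Myriocin 2 to 35.5 CPM in Myriocin 1, with a median of 22.6 CPM, all within the DMSO range. The log2 fold change of Cebpd was -0.01 (SE 0.35, 95% interval -0.79 to 0.77). DMSO 2, the library with the most neutrophil and adipocyte markers, was the highest for both factors, and the part of those cells in it was not tested. Exons overlap those of an opposite-strand gene in Cebpb (312 bases with Tmem189) and in Cebpd (562 bases with Spidr), so their reads may not be wholly their own.

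Zbtb16 (ENSMUSG00000066687, chr9:48654297-48836222, minus strand) encodes PLZF, a zinc finger repressor strongly induced by the hormone in many cell types. Its DMSO libraries stood at 91.3, 56.7, 112, 113 and 72.1 CPM. Its myriocin libraries ran from 39.6 CPM in Myriocin 4 to 144 CPM in Myriocin 1, with a median of 67.8 CPM. Myriocin 2, 4 and 5 lay below every DMSO library and Myriocin 1 above every one. Zbtb16 had a log2 fold change of -0.16 (SE 0.33, 95% interval -0.91 to 0.58). It was -0.44 without Myriocin 1, -0.03 without Myriocin 4 and 0.03 without the 3 libraries with most albumin transcripts (DMSO 4, DMSO 5 and Myriocin 4). That last setting kept DMSO 2, which had the highest sum of hepatocyte markers (222 CPM).

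Ddit4 (ENSMUSG00000020108, chr10:59949669-59951834, minus strand) encodes REDD1, which restrains the growth kinase mTORC1. In DMSO 1 to 5 it stood at 9.67, 19.3, 22.8, 10.8 and 9.08 CPM. With myriocin it ran from 8.88 CPM in Myriocin 2 to 45.9 CPM in Myriocin 1, with a median of 17.3 CPM. Libraries near 9 CPM and libraries above 19 CPM were found in both groups, and Myriocin 1 stood apart from the next highest, Myriocin 3 at 24.5 CPM. For Ddit4 the log2 fold change was 0.59 (SE 0.47, 95% interval -0.47 to 1.64), and it was 0.18 without Myriocin 1.

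Sgk1 (ENSMUSG00000019970, chr10:21882184-21999903, plus strand) encodes a serine/threonine kinase related to AKT that acts on ion transport and cell survival. In DMSO 1 to 5 it stood at 90.0, 230, 195, 146 and 125 CPM. With myriocin it ran from 131 CPM in Myriocin 2 to 276 CPM in Myriocin 1, with a median of 167 CPM. DMSO 1 and DMSO 5 lay below every myriocin library, and Myriocin 1 alone lay above every DMSO library. For Sgk1 the log2 fold change was 0.27 (SE 0.25, 95% interval -0.28 to 0.82), and it was 0.11 without Myriocin 1.

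**Figure D2:**
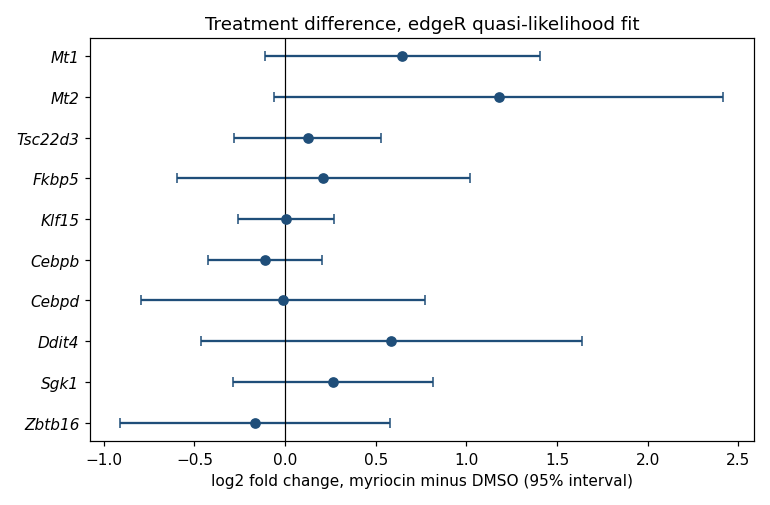
Log2 fold change of each gene, myriocin minus DMSO, from the edgeR fit (points) with 95% intervals (bars), and a line at 0. All 10 intervals include 0, the widest for Mt2 and the narrowest for Klf15.

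Per kilobase of exons, the mean level over 11 libraries was highest for Tsc22d3 (44.6 ± 9.65 CPM per kilobase, SD) and Sgk1 (35.0 ± 10.8). Klf15 (19.0 ± 2.84), Zbtb16 (15.7 ± 5.98), Mt1 (15.4 ± 7.20) and Cebpb (14.5 ± 2.86) followed, with overlapping spreads. These 4 were not compared library by library, so differences between them were not tested. Ddit4 (10.2 ± 6.33), Cebpd (6.52 ± 2.54) and Fkbp5 (4.62 ± 2.28) came next with overlapping spreads, and Mt2 was lowest at 1.34 ± 1.22. With the longest coding transcript as the length, Fkbp5 moved above Ddit4 and Cebpd, to 11.3 CPM per kilobase. Mt1 then stood at 17.7, above Zbtb16 at 16.2. The annotated exons of Mt1 cover its whole gene of 1246 bases, so its level per kilobase may be understated and its place is uncertain.

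With the spread pooled over both groups, these genes varied between libraries of the same treatment more than most genes of like level. For Fkbp5 this came mostly from the myriocin libraries (SD 30.3 CPM), the DMSO libraries being close together (SD 1.80 CPM). The SD of log2(CPM + 1) within groups was 0.74 for Ddit4, 0.62 for Cebpd, 0.57 for Mt1 and Zbtb16, 0.55 for Fkbp5, 0.45 for Sgk1 and Mt2, 0.35 for Tsc22d3, 0.27 for Cebpb and 0.22 for Klf15. For each gene the 500 tested genes nearest in level had a median SD between 0.13 and 0.19. In 9 of the 10 members the SD exceeded that of over 90% of those 500 genes (91.4% for Cebpb to 99.6% for Ddit4), and in Klf15 it exceeded 89.8%. Without DMSO 1 or without Myriocin 1, 8 members were above 90%.

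The same libraries tended to be high or low in many of the genes. Myriocin 1 was among the 3 highest libraries for all 10 genes, and Myriocin 3 for 6, being the top library for Mt1, Mt2 and Tsc22d3. DMSO 2, DMSO 3 and Myriocin 4 were among the 3 highest for 4 genes each. At the other end, DMSO 1, Myriocin 2 and Myriocin 5 were each among the 3 lowest for 8 genes. In Myriocin 1, fibroblast markers summed to 1861 CPM, against 936 to 1455 CPM elsewhere, and macrophage markers to 331 CPM, below only the 341 CPM of DMSO 2. The part of those cells in the levels of Myriocin 1 was not tested.

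**Figure D3:**
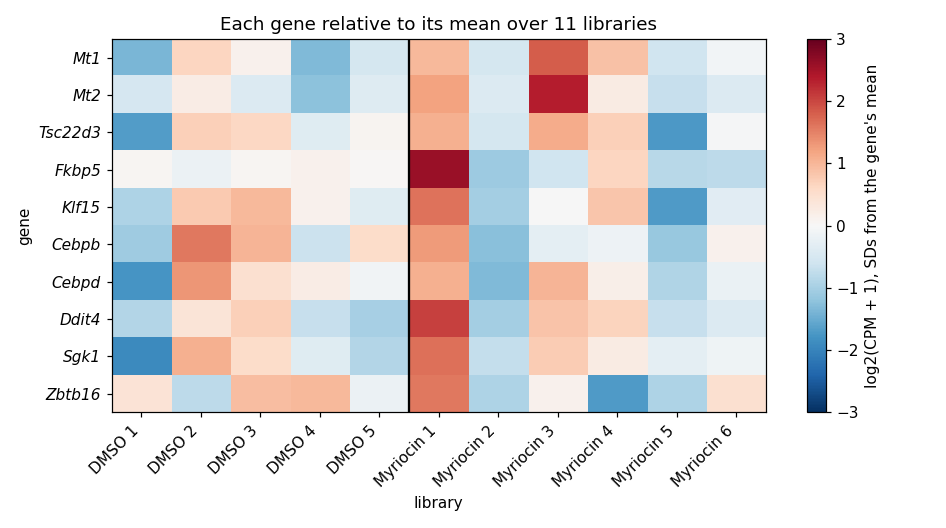
Each gene (rows) in each library (columns), coloured by log2(CPM + 1) in SDs from the gene's mean over 11 libraries, red above and blue below it, with a line between DMSO and myriocin. Myriocin 1 is above the mean in all 10 genes, while DMSO 1, Myriocin 2 and Myriocin 5 are mostly below it.

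Co-variation was measured for the 45 pairs of genes as Pearson's r and Spearman's rho of log2(CPM + 1) over 11 libraries, each with a 2-sided permutation test of 100000 resamples adjusted by Benjamini-Hochberg over the 45 pairs. Of the 45 pairs, 44 had a positive r, with a median of 0.66, and 23 passed an adjusted p of 0.05, all of them positive. By rho 22 passed, and 21 passed by both. The lowest r among the 23 was 0.66, a value reached by 4.06% of all pairs of tested genes. The genes were chosen with results of these libraries known, so these p-values describe the pairs and are not independent support.

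Among the closest pairs were Mt1 and Mt2, with r = 0.89 (permutation p = 3e-05, adjusted 0.00135) and rho = 0.95 (permutation p = 8e-05, adjusted 0.0018). It was 0.91 without DMSO 1 and Myriocin 3, the libraries farthest from the median of Mt1. Mt1 and Tsc22d3 gave r = 0.83 (permutation p = 0.00179, adjusted 0.0115) and rho = 0.94 (permutation p = 8e-05, adjusted 0.0018), and r = 0.75 without the same 2 libraries, where the pair no longer passed (permutation p adjusted 0.0666). Mt1 passed also with Cebpd (r = 0.74), Ddit4 (r = 0.81) and Sgk1 (r = 0.81). With Fkbp5 it gave r = 0.28 (permutation p = 0.424, adjusted 0.477) and rho = 0.25 (permutation p = 0.470, adjusted 0.516). That r was 0.00 without Myriocin 1 and 0.58 without DMSO 1 and Myriocin 3, so it rests on single libraries. Myriocin 3 shows the contrast: it had the most Mt1 and, at 32.6 CPM, less Fkbp5 than any DMSO library.

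Similar r values joined Cebpd, Sgk1, Ddit4, Tsc22d3 and Klf15. Cebpd and Sgk1 gave r = 0.89 (permutation p = 0.00017, adjusted 0.00383) and rho = 0.86 (permutation p = 0.00116, adjusted 0.0087), and r = 0.81 without DMSO 1 and Myriocin 2. Ddit4 and Sgk1 gave r = 0.88 (permutation p = 0.00034, adjusted 0.0051) and rho = 0.90 (permutation p = 0.00042, adjusted 0.00473), and r = 0.80 without Myriocin 1 and Myriocin 3. Tsc22d3 and Cebpd gave r = 0.88 (permutation p = 0.00055, adjusted 0.00619) and rho = 0.86 (permutation p = 0.00095, adjusted 0.00855), and r = 0.83 without DMSO 1 and Myriocin 5. Tsc22d3 and Klf15 gave r = 0.85 (permutation p = 0.00077, adjusted 0.00693) and rho = 0.76 (permutation p = 0.00861, adjusted 0.0228), and r = 0.75 without the same pair of libraries, where it no longer passed (permutation p adjusted 0.0769). Klf15 and Ddit4 gave r = 0.84 (permutation p = 0.00129, adjusted 0.00967) and rho = 0.83 (permutation p = 0.00259, adjusted 0.0146), and r = 0.81 without Myriocin 1 and Myriocin 5.

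Tsc22d3 and Ddit4 each passed with 7 of the 9 other genes, Klf15, Cebpd and Sgk1 with 6, Mt1 with 5, Cebpb with 4 and Mt2 with 3. Fkbp5 passed with 2 and Zbtb16 with none over all 11 libraries. Fkbp5 and Klf15 gave r = 0.75 (permutation p = 0.00481, adjusted 0.0147) and rho = 0.78 (permutation p = 0.00572, adjusted 0.0188), but it did not pass without Myriocin 1 alone (r = 0.65, permutation p adjusted 0.101) or without Myriocin 1 and Myriocin 2 (r = 0.59, permutation p adjusted 0.183). Fkbp5 and Ddit4 gave r = 0.71 (permutation p = 0.0162, adjusted 0.0332) and rho = 0.52 (permutation p = 0.107, adjusted 0.160). Without Myriocin 1 that r was 0.33, and without Myriocin 1 and Myriocin 2 it was 0.16, so it rests on those libraries. The r of Zbtb16 ran from -0.08 with Mt1 to 0.47 with Fkbp5. The latter (permutation p = 0.147, adjusted 0.213; rho = 0.46, permutation p = 0.154, adjusted 0.210) turned on which libraries were kept. It was -0.15 without Myriocin 1 and Myriocin 2 and 0.04 without Myriocin 1. It passed without Myriocin 4 (r = 0.73, permutation p adjusted 0.0164), without the 3 albumin libraries (r = 0.76, permutation p adjusted 0.0343) and without DMSO 2, DMSO 5 and Myriocin 4, which lay farthest from the rest (r = 0.79, permutation p adjusted 0.0223).

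With group means removed, 26 pairs passed, beside 23. Without Myriocin 1, 16 pairs passed, and the other libraries left out singly gave up to 26. In the 6 myriocin libraries alone 2 pairs passed by an exact test, although the r of the 23 pairs was no lower: it ran from 0.72 to 0.98 with a median of 0.87, beside 0.80 over 11 libraries, and was higher in 18 of them. When each pair lost the 2 libraries farthest from the median of its first gene, 10 passed. All 23 pairs kept a positive r there, the lowest being the 0.16 of Fkbp5 and Ddit4. The labels name no batch, so no value within batches can be given.

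**Figure D4:**
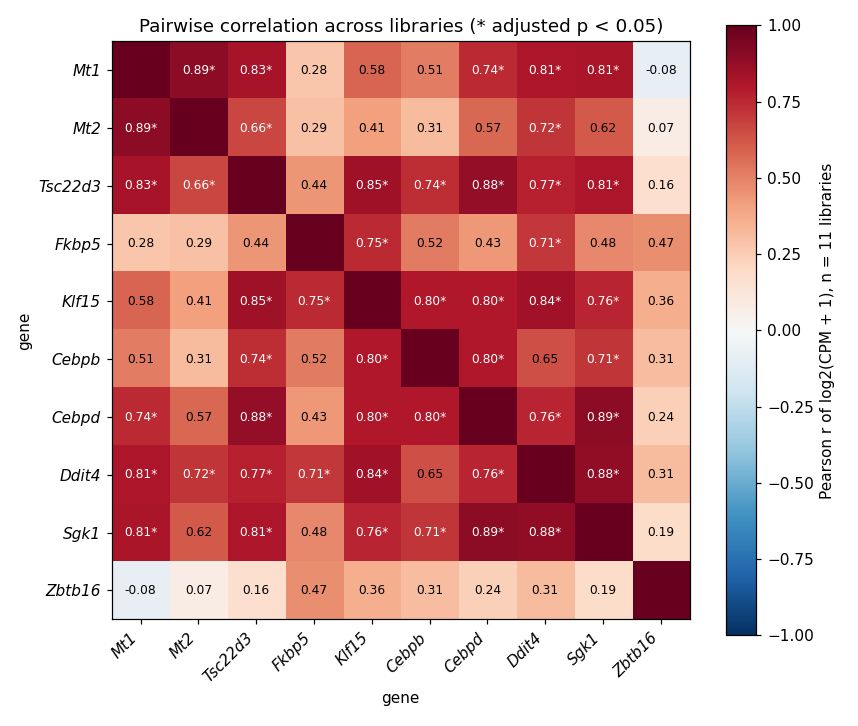
Pearson r of log2(CPM + 1) over 11 libraries for each pair of the 10 genes (rows and columns), red for positive and blue for negative values, with an asterisk where the permutation p adjusted over 45 pairs is below 0.05. There are 23 pairs with an asterisk, 2 of them with Fkbp5 and none with Zbtb16.

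The tested genes most like 3 of the members were ranked by Pearson r over the 11 libraries, among 11697 genes with a mean of at least 1 CPM and a symbol that is not a predicted gene. These r values are the highest of that many and are given without a test. For Mt1 they were Eml5 (0.83), a microtubule-associated protein gene, then Tsc22d3 (0.83), Sgk1 (0.81) and Ddit4 (0.81), and Tob2 (0.80), an antiproliferative factor. Of these 5, 3 were members of this set. Mt2, at r = 0.89 with Mt1, had a mean of 0.79 CPM and was therefore not ranked. For Klf15 they were Glul (0.96), Arrdc2 (0.94), Sult1a1 (0.93), Plpp2 (0.89) and Wbp1l (0.88), none of them a member. Glul, the glutamine synthetase gene and a classical hormone target in muscle, ran from 202 CPM in Myriocin 5 to 797 CPM in Myriocin 1, the same libraries that held the extremes of Klf15. Arrdc2, an arrestin-like gene, ran from 9.44 CPM to 63.8 CPM in the same 2 libraries. For Fkbp5 they were Rab7 (0.90), a late endosome GTPase, Plin4 (0.88), a lipid droplet coat protein, Prickle3 (0.87), Ankrd9 (0.86) and Odf3l2 (0.85), none of them a member. Klf15 was 20th in likeness to Fkbp5, and Mt1 was 1409th.

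**Figure D5:**
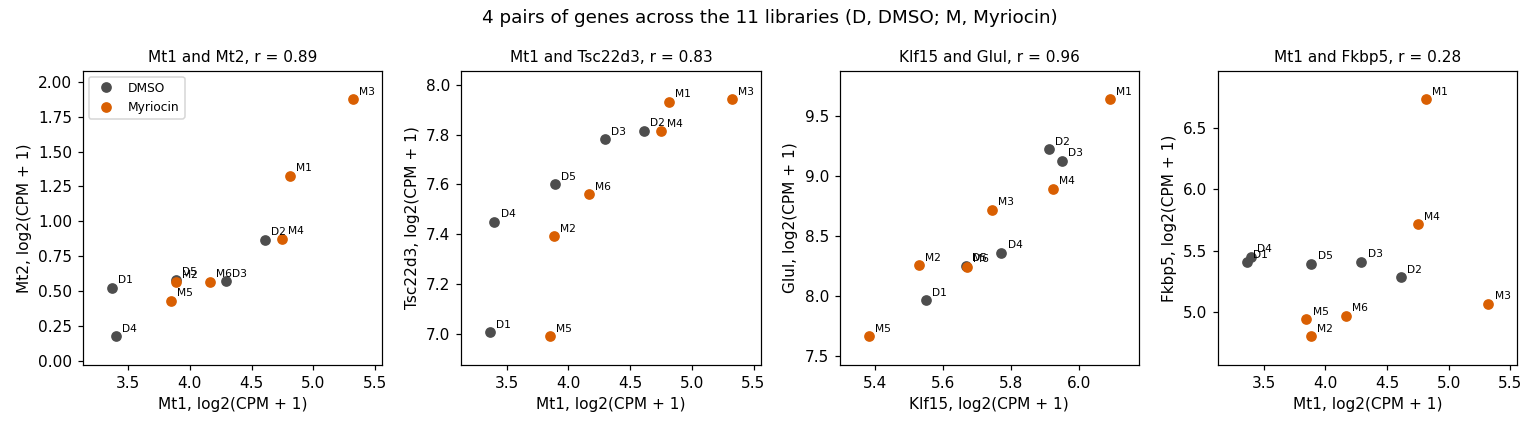
Levels of 4 pairs of genes as log2(CPM + 1) on both axes, 1 point per library (D, DMSO; M, Myriocin), with Pearson r above each panel. Mt1 runs with Mt2 (0.89) and with Tsc22d3 (0.83), and Klf15 with Glul (0.96). Mt1 and Fkbp5 gave 0.28, which was 0.50 without Myriocin 3 and -4.8e-06 without Myriocin 1.

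None of 10 related gene lists had a gene past an adjusted p of 0.05 by edgeR, and counts by direction follow for the tested genes of each. Among 15 genes for the receptor and its handling, 9 were above 0 and 6 below, with 2 at an unadjusted p under 0.05, the HSP90 genes Hsp90aa1 (log2 fold change -0.22, SE 0.09, adjusted p = 0.936) and Hsp90ab1 (-0.16, SE 0.07, adjusted p = 0.936). The receptor gene Nr3c1, named after its values were seen, averaged 70.8 ± 8.96 CPM (SD, n = 6) in the myriocin libraries and 68.4 ± 5.17 CPM (SD, n = 5) in the DMSO libraries. Among 11 genes of metal handling, 9 were above 0 and 2 below, none at an unadjusted p under 0.05. Mtf1, the metal-sensing factor, had a log2 fold change of 0.16 (SE 0.09) and Slc39a14, a zinc importer, 0.16 (SE 0.10).

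Among 31 other genes known to be induced by the hormone, 16 were above 0 and 15 below, with a median log2 fold change of 0.00. Those with the smallest p were Rgs2, a regulator of G protein signalling (-0.52, SE 0.20, unadjusted p = 0.0247), and Mstn, the myostatin gene (0.21, SE 0.09, unadjusted p = 0.0413), both at an adjusted p of 0.936 by edgeR. Over libraries, 28 of the 31 had a positive r with Klf15 (median 0.45), 27 with Tsc22d3 (median 0.33), 25 with Fkbp5 (median 0.44) and 22 with Mt1 (median 0.15). The median r of all tested genes with each of these 4 lay between -0.07 and -0.01. The muscle atrophy ligase gene Fbxo32 (0.24 with Klf15) and the pyruvate dehydrogenase kinase gene Pdk4 (0.09) were among the looser ones. Trim63, another muscle atrophy ligase gene, gave 0.65 with Klf15. All are usually counted as hormone targets and were picked here after their values were seen.

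Of 11 relatives of the C/EBP and KLF factors 3 were above 0 and 8 below, with Klf13 (0.18, SE 0.11) and Klf4 (-0.15, SE 0.13) at the smallest p. The same split of 3 and 8 was found in 11 genes of amino acid metabolism listed under KLF15, with Got1 (-0.17, SE 0.10) and Bckdhb (-0.12, SE 0.08) first. Not all of these 11 act on branched-chain amino acids, Got1, Gpt and Prodh being among the others. Of 14 genes around SGK1 and REDD1, 8 were above 0 and 6 below, and Rps6kb1, the S6 kinase gene (0.15, SE 0.07), and Sgk3 (-0.25, SE 0.11) had an unadjusted p under 0.05. Of 11 cytokine and acute phase genes 5 were above 0 and 6 below, none under 0.05 unadjusted, with Hp, haptoglobin (-0.89, SE 0.51), and Osmr (-0.18, SE 0.15) first.

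Of 18 immediate early genes, which respond within minutes to stimulation or handling, 5 were above 0 and 13 below, with 2 under 0.05 unadjusted, Nr4a1 (0.27, SE 0.12) and Ier2 (-0.39, SE 0.18). Their summed level ran from 317 CPM in DMSO 1 to 473 CPM in DMSO 2 with DMSO and from 309 CPM in Myriocin 5 to 452 CPM in Myriocin 1 with myriocin, and in each group its lowest library was also the one with the least Tsc22d3. Over the 11 libraries the summed level, as log2(CPM + 1), gave r = 0.86 with Tsc22d3 (permutation p = 0.00197, rho = 0.75, permutation p = 0.0106), 0.70 with Klf15, 0.62 with Sgk1, 0.54 with Mt1 and 0.33 with Fkbp5. The r with Tsc22d3 was 0.46 without DMSO 1 and Myriocin 5, so it rests on those libraries. In a family of 65 relations, between these genes or 12 summed marker lists and 5 members (Mt1, Tsc22d3, Fkbp5, Klf15 and Sgk1), none passed an adjusted permutation p of 0.05, the smallest being this one at 0.128 for r and 0.690 for rho. Of 17 clock genes 12 were above 0 and 5 below, with 3 under 0.05 unadjusted, led by Tef (0.18, SE 0.07) and Bhlhe41 (0.27, SE 0.12). Per1, which answers to both clock and hormone and was picked after its values were seen, ran from 35.5 CPM in DMSO 5 to 118 CPM in Myriocin 1. Of 10 oxidative and metal stress genes 2 were above 0 and 8 below, with Hspa1a (-0.55, SE 0.25) under 0.05 unadjusted and Nfe2l2 (-0.13, SE 0.08) next. The part of handling or of the hour of collection in the co-variation was not tested.

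Sums of some cell type markers ran against several members and others ran with them, none past the adjusted threshold among those 65 relations. Endothelial markers summed to 311 CPM in Myriocin 3, where Mt1 was highest, and to 361 to 436 CPM in the other 10 libraries. Schwann cell markers summed to 60.4 CPM in Myriocin 3 and 69.7 CPM in Myriocin 1, against 77.2 to 116 CPM elsewhere. Over the 11 libraries the endothelial sum gave r = -0.75 with Mt1 (permutation p = 0.00571, adjusted 0.186, rho = -0.60, permutation p = 0.0578, adjusted 0.815), -0.53 with Tsc22d3, -0.49 with Sgk1, -0.18 with Klf15 and -0.09 with Fkbp5. The r with Mt1 was -0.40 without Myriocin 1 and Myriocin 3. The Schwann cell sum gave r = -0.69 with Tsc22d3 (permutation p = 0.0191, adjusted 0.310, rho = -0.60, permutation p = 0.0554, adjusted 0.815), -0.60 with Mt1, -0.51 with Sgk1, -0.38 with Klf15 and -0.24 with Fkbp5. Without the same 2 libraries these were -0.53 with Tsc22d3 and -0.09 with Mt1. The macrophage sum gave r = 0.53 with Klf15 (permutation p adjusted 0.530). It gave 0.52 with Sgk1, 0.44 with Tsc22d3, 0.39 with Fkbp5 and 0.22 with Mt1. Without DMSO 2 and Myriocin 4 these were, in the same order, 0.83, 0.60, 0.67, 0.76 and 0.39. The adipocyte sum gave r = 0.56 with Sgk1 (permutation p adjusted 0.530), and 0.21 without DMSO 1 and DMSO 2. The part of these cells in the members' levels was not tested. Of the remaining marker sums, smooth muscle ran from 5046 to 6928 CPM, erythroid from 46.4 to 233 CPM, lymphocyte from 151 to 333 CPM and satellite cell from 30.2 to 41.8 CPM.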

How the data were processed

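Total RNA of quadriceps was sequenced with DNBseq, per the labels' protocols. The authors deposited raw read counts per Ensembl gene for 11 libraries, and the submitters' processing notes name STAR 2.5.2b, HTSeq 0.6.0 and GRCm38. Whether counting used strand is not given in the sources used here. Each library had 22241131 to 23163721 gene counts. The 5 HTSeq summary lines (24.8% to 28.2% of reads) stayed out of totals and tests. Columns were matched to samples by name, and 53360 of 53465 identifiers matched GENCODE M21. No library was a copy of another of its group (chi-square per degree of freedom at least 8.18 over the 25 pairs within groups). The floor covers counting error only.

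edgeR 4.0.16 (R 4.3.3; filterByExpr, minimum count 10 and minimum total 15; TMM; robust quasi-likelihood test) gave log2 fold changes, and SE is the absolute log2 fold change over the square root of F. The fit was also tested on simulated counts for the 5 against 6 design. CPM was taken without TMM and correlations use a pseudocount of 1. Correlations, permutations and figures were made with Python 3.11.15, numpy 2.4.6, scipy 1.17.1 and matplotlib 3.10.9. The genes, lists and tests were chosen with earlier results of these data known. Named beyond the 10 members are the 5 genes most like Mt1, Fkbp5 and Klf15 and the 2 smallest p of each list. Nr3c1, Fbxo32, Trim63, Pdk4, Per1 and the genes DESeq2 called were named after their values were seen, and relations of summed lists were added then too. Alternatives were DESeq2 1.42.0, limma-voom (limma 3.58.1), other scalings, no filter, left-out libraries and a replicate block.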

Additional observations from a re-analysis of the deposited data

Results flagged for a closer look

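Of 44 sets of values checked (10 genes and 12 summed marker lists, each in both groups, as log2(CPM + 1)), 1 had a library far from the others by Dixon's ratio, which chance gives in about 1 of 20 sets. Hepatocyte markers summed to 205 CPM in Myriocin 4, against 42.7 to 54.6 CPM in the other 5 myriocin libraries. None of the 10 genes was picked out in this way. With DMSO the same sum was 222 CPM in DMSO 2, 197 CPM in DMSO 4 and 144 CPM in DMSO 5. In Myriocin 4, Mt1 (25.9 CPM) and Fkbp5 (51.5 CPM) were above every DMSO library and Zbtb16 (39.6 CPM) was below every one. Mt1, Fkbp5 and Zbtb16 stood at 23.4, 37.9 and 56.7 CPM in DMSO 2. In DMSO 4 they stood at 9.57, 42.8 and 113 CPM, and in DMSO 5 at 13.8, 41.1 and 72.1 CPM. The part of liver transcripts in these levels was not tested.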

How the results depend on the processing

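None of the 10 genes passed the adjusted threshold under any of 20 alternatives, and their lowest adjusted p over these was 0.523 (Mt2). Among all genes tested in each setting, 0 passed in 19 alternatives and DESeq2 called 3 (Sh3rf2, Tirap and Xlr3b, named after their values were seen). DESeq2 had 756 of its 29286 genes at an unadjusted p below 0.05. Mt2 was under 0.05 unadjusted with DESeq2, with the replicate block and without DMSO 2, Myriocin 2, Myriocin 5 or Myriocin 6, and Mt1 without DMSO 2, Myriocin 2 or Myriocin 5. Over all genes, 509 of 14014 were under 0.05 with the block and 710 of 14226 without DMSO 2. The counts were 512 of 14040 without Myriocin 2, 552 of 14013 without Myriocin 5 and 558 of 14014 without Myriocin 6.

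The sign of the log2 fold change was kept in all alternatives for Mt1 (0.43 to 0.84), Mt2 (0.66 to 1.65), Tsc22d3 (0.01 to 0.23), Ddit4 (0.18 to 0.82) and Sgk1 (0.11 to 0.42). Leaving out 1 library gave -0.22 to 0.33 for Fkbp5, -0.082 to 0.074 for Klf15, -0.20 to 0.19 for Cebpd, -0.21 to -0.04 for Cebpb and -0.44 to -0.03 for Zbtb16. Klf15 was -0.012 with limma-voom, -0.036 with no scaling, -0.056 without the 3 libraries with most albumin (DMSO 4, DMSO 5 and Myriocin 4) and -0.041 without the 3 farthest out (DMSO 2, DMSO 5 and Myriocin 4). Without the latter 3, Cebpb was 0.020 and Cebpd 0.20, and without the albumin libraries Zbtb16 was 0.031. The cause of these changes was not tested. The albumin setting kept DMSO 2, which had the highest sum of hepatocyte markers.

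With replicate number as a block (10 libraries), 0 genes passed and Cebpd was 0.013. The labels do not say that the numbers pair the libraries. Same-numbered deviations correlated from -0.14 to 0.08, and 0 of 5 DMSO libraries correlated best with their own number. With so few libraries these values cannot settle whether the numbers pair them.

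The count of 23 correlated pairs was 16 to 26 when 1 library was left out, 2 in the myriocin libraries alone (6 points, median r of the 23 pairs 0.87) and 10 without the 2 libraries farthest out in each pair (9 points). The r of Mt1 and Fkbp5 was -4.8e-06 to 0.50 when 1 library was left out, and that of Fkbp5 and Zbtb16 was 0.04 to 0.73, passing without Myriocin 4, and -0.15 without its 2 farthest libraries. The members with a spread above 90% of like genes were 8 to 10.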
